A study of Mus musculus with 12 samples.

Results

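The genes described here make, break down, take up or sense prostaglandins, and they were followed in the rectum of mice with chemically induced colitis, with and without berberine (BBR), a plant alkaloid. They are the 10 rows of the expression table named Ptgs1, Ptgs2, Ptges, Ptges2, Ptgis, Hpgd, Slco2a1, Ptger2, Ptger3 and Ptger4, taken by symbol from 17734 genes, and all 10 were present. Rectal RNA was sequenced from 12 male C57BL/6 mice aged 8 to 10 weeks, 3 in each of 4 groups. Normal mice drank water, and colitis mice were given 2.5% dextran sulfate sodium (DSS), a sulfated polysaccharide that damages the colonic epithelium, in the drinking water for 7 days. The other 2 groups, normal or colitis mice receiving BBR, also had 100 mg/kg of it by gavage once a day, for 7 days by the study's methods and 6 days by the sample labels. The tissue is whole rectum by the study's methods and colorectum or colon by the labels. It holds many cell types, and fewer cells of a type and less RNA per cell cannot be told apart.

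Prostaglandins are lipid signals made from arachidonic acid, which phospholipases release from membranes. The cyclooxygenases, encoded by Ptgs1 and Ptgs2, turn it into a common precursor, and terminal synthases then make prostaglandin E (Ptges, Ptges2) or prostacyclin (Ptgis) from it. The signal ends when the transporter encoded by Slco2a1 takes prostaglandins up and the dehydrogenase encoded by Hpgd inactivates them inside the cell. Prostaglandin E acts through G protein-coupled receptors, among them those encoded by Ptger2, Ptger3 and Ptger4. In the bowel it is known for supporting mucosal defence and repair as well as for its part in inflammation.

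The deposited values were read as FPKM, which scales reads by transcript length and library size, so levels can be compared between genes. All tests used log2(FPKM + 0.1) and limma over 15315 genes with a mean of at least 0.1 in the 12 mice, and all 10 prostaglandin genes were among them. Fold changes on this scale understate the change of low genes, and each adjusted p is limma's, by the Benjamini-Hochberg method across the whole table tested. Exact permutation p-values are two-sided, and with 3 mice in each group they cannot go below 0.1. Comparisons that share a group share its 3 mice. The mice numbered 4, 1 in each group, stand apart from the other 8. Their columns add up to 482194 to 504337 against 696286 to 765876, and 872 to 1086 genes were at 0 against 1332 to 1926. The steps between low values of single-transcript genes were best met with 50 to 60 bases taken off the transcript length in the mice numbered 4 and 250 to 300 bases in the others. One read was then worth 51.0 to 57.5 and 62.5 to 66.5 FPKM times bases. The sources used here describe 1 protocol with single-end reads for all mice, and whether the mice numbered 4 were processed in another way was not tested. Epithelial markers summed to 6892 to 13010 FPKM over the 12 mice with none of the 8 markers at 0 throughout a group.

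In normal mice the family was led by the genes of uptake and breakdown. Hpgd stood at 196 ± 47.1 FPKM (SD, n = 3), above 97.3% of all genes in the table. Slco2a1 followed at 56.8 ± 7.76 FPKM, then Ptges2 at 16.2 ± 4.58 FPKM, and the 3 values of each of these genes lay apart from those of its neighbours in the order. Ptgs1 was at 8.96 ± 1.28, Ptger4 at 6.19 ± 2.02, Ptgis at 3.94 ± 1.06, Ptger3 at 3.09 ± 0.699, Ptges at 2.52 ± 0.924 and Ptgs2 at 1.29 ± 0.636 FPKM. In this stretch the values of each gene overlapped with those of the next one. Ptger2 was lowest, at 0.367 ± 0.112 FPKM, and below Ptgs2 in every normal mouse. The order was the same in normal mice receiving BBR except that Ptgis and Ptger3, which overlapped, changed places.

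**Figure D1:**
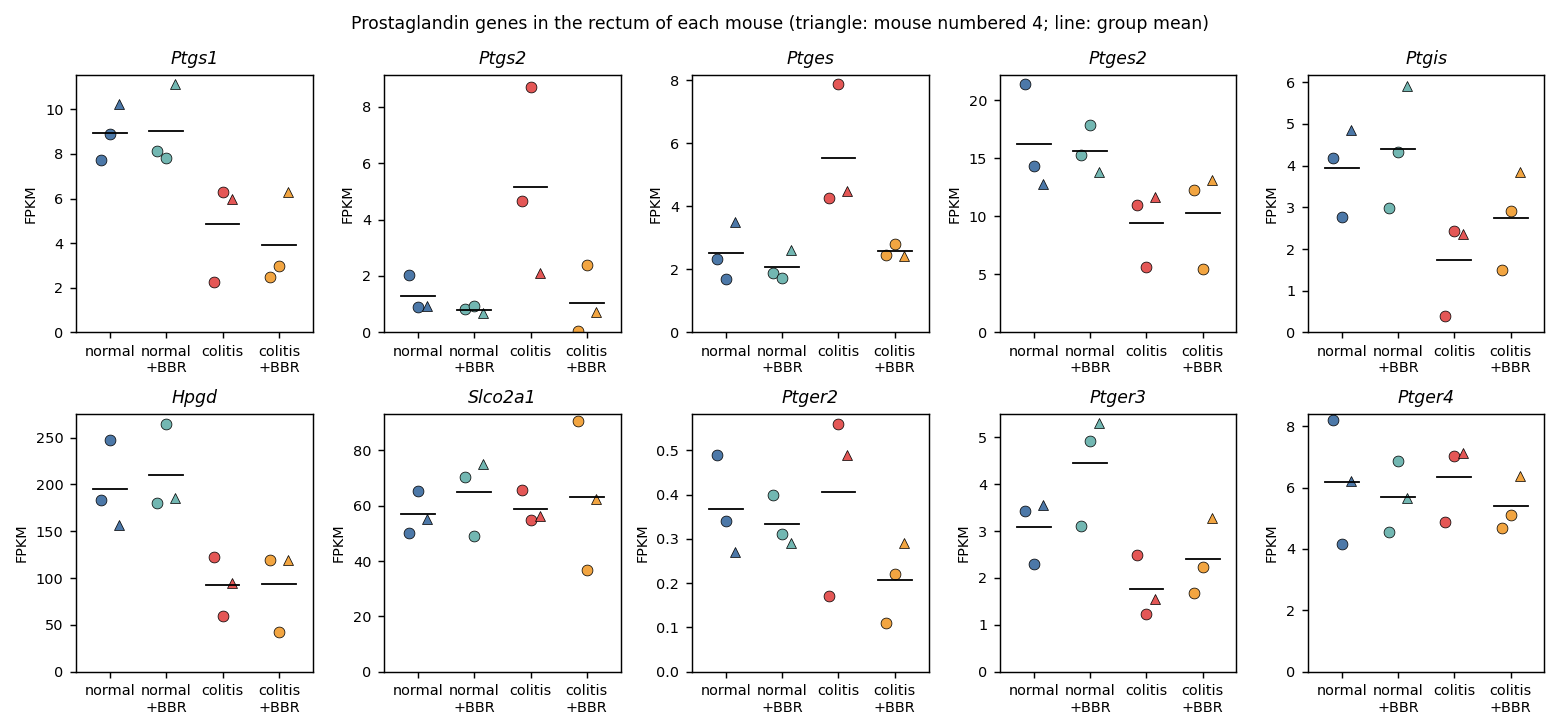
FPKM of the 10 prostaglandin genes (linear axes from 0) in each of the 12 mice, by group. Circles are mice numbered 1 to 3, triangles the mice numbered 4, and lines the group means. Ptges is highest in the 3 colitis mice, Ptgs2 is above all normal mice in the 3 colitis mice and in colitis mouse 3 receiving BBR, Hpgd and Ptgs1 are lower in all 6 mice given DSS than in the 6 without it, and Slco2a1 and Ptger4 overlap in all groups.

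The comparison of colitis with normal mice asks what the injury does to this pathway. In colitis mice the inducible enzymes Ptgs2 and Ptges were higher, while the constitutive cyclooxygenase Ptgs1, the prostacyclin synthase Ptgis, the synthase Ptges2 and the inactivating enzyme Hpgd were lower. The groups did not overlap for these 6 genes, 2 higher and 4 lower, where 7.10% of all genes were higher and 22.2% lower without overlap (29.3% in all). None of the 10 genes passed the adjusted limit of 0.05 in limma, which 1.08% of all genes did. With the unadjusted limit used in the study's methods, P up to 0.05, which 21.4% of all genes passed, 1 of 10 was higher (5.56% of all genes) and 5 of 10 were lower (15.9%). The median log2 fold change of the 10 genes was −0.38, beside −0.32 over all genes.

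Ptgs2, the cyclooxygenase that inflammatory signals induce, was at 2.02, 0.89 and 0.95 FPKM in normal mice 1, 3 and 4. It was at 4.65, 8.71 and 2.09 FPKM in colitis mice 1, 2 and 4, so the lowest colitis mouse, number 4, was just above the highest normal mouse. The means were 1.29 and 5.15 FPKM, and the log2 fold change 1.79 (standard error, SE, 0.84, adjusted p = 0.239, exact permutation p = 0.1). Its transcript of 4453 bases gave an estimated 56.7 to 131 reads in normal mice and 180 to 586 in colitis mice.

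Ptges, the inducible microsomal synthase that works with Ptgs2, was at 2.33, 1.70 and 3.52 FPKM in normal mice 1, 3 and 4 and at 4.27, 7.88 and 4.48 FPKM in colitis mice 1, 2 and 4. All colitis mice were above all normal mice, and the log2 fold change was 1.11 (SE 0.33, adjusted p = 0.109, exact permutation p = 0.1). This was the smallest adjusted p among the 10 genes in this comparison. Colitis mouse 2 had the highest value of both Ptgs2 and Ptges. In the mice numbered 4, the log2 difference in Ptges was 0.34, and in the others it was larger.

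Ptgs1, the cyclooxygenase that many tissues express without stimulation, was at 7.71, 8.91 and 10.3 FPKM in normal mice 1, 3 and 4 and at 2.28, 6.29 and 5.97 FPKM in colitis mice 1, 2 and 4. Every colitis mouse was below every normal mouse, and the log2 fold change was −0.99 (SE 0.41, adjusted p = 0.199, exact permutation p = 0.1). Ptgis, which encodes prostacyclin synthase, was at 4.19, 2.77 and 4.85 FPKM in normal mice and at 0.40, 2.43 and 2.37 FPKM in colitis mice. Colitis mouse 1 was by far the lowest, and the groups did not overlap (log2 fold change −1.43, SE 0.59, adjusted p = 0.196, exact permutation p = 0.1). Without colitis mouse 1 the log2 fold change of Ptgis was −0.65 and that of Ptgs1 −0.53.

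Ptges2, a second synthase of prostaglandin E that is not known for induction by inflammation, was at 21.4, 14.4 and 12.8 FPKM in normal mice 1, 3 and 4 and at 10.95, 5.61 and 11.7 FPKM in colitis mice 1, 2 and 4. The groups did not overlap, and the log2 fold change was −0.81 (SE 0.37, adjusted p = 0.233, exact permutation p = 0.1). Colitis mouse 2, highest for Ptgs2 and Ptges, was lowest for Ptges2 and for Hpgd among the colitis mice, and without it the log2 fold change of Ptges2 was −0.48.

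Hpgd, the 15-hydroxyprostaglandin dehydrogenase that inactivates prostaglandin E, was at 183, 248 and 156 FPKM in normal mice 1, 3 and 4 and at 123, 59.2 and 94.8 FPKM in colitis mice 1, 2 and 4. Its mean in colitis mice was 0.472 of that in normal mice, and the log2 fold change was −1.12 (SE 0.40, adjusted p = 0.157, exact permutation p = 0.1). Even so it remained the most abundant of the 10 genes, at 92.2 ± 31.9 FPKM (SD, n = 3). Slco2a1, the uptake carrier upstream of it, was at 49.98, 65.3 and 55.3 FPKM in normal mice and 65.7, 54.8 and 56.4 FPKM in colitis mice, with overlapping groups (exact permutation p = 0.7). Hpgd and Slco2a1, apart in normal mice, overlapped in colitis mice.

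The letters just upstream of the start sites of Ptgs2, Ptges and Hpgd are shown because Ptgs2 and Ptges stand for the inducible synthesis and Hpgd for the breakdown in the results above. RefSeq's promoter table (GRCm38.p6) matched 9 of the 10 genes, all but Ptgis, and the 250 bases before each start were searched on both strands. Capitals mark matches to C/EBP (TTNNGNAA) or to a GC box (GGGCGG, on the other strand CCGCCC). The Ptgs2 stretch lies at chr1:150099781-150100030 on the plus strand, that of Ptges at chr2:30903298-30903547 on the minus strand and that of Hpgd at chr8:56294302-56294551 on the plus strand.
Ptgs2: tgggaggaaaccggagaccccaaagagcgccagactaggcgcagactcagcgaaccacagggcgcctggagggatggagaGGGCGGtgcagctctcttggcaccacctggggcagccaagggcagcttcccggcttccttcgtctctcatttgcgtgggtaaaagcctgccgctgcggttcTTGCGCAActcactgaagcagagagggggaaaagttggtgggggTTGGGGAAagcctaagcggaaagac
Ptges: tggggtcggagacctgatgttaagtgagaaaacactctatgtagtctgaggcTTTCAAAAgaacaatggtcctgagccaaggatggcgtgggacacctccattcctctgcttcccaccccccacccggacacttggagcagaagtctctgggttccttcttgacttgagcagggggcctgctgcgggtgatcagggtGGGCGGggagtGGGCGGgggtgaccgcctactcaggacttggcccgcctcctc
Hpgd: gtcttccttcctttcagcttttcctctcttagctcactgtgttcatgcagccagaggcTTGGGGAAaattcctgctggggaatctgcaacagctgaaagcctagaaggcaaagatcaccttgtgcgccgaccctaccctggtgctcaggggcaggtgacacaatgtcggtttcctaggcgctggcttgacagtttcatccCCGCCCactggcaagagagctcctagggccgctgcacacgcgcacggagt

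The C/EBP letters were in 5 of the 9 stretches and in 36.9% of 32851 promoters of the same length, and in Ptgs2 they began 69 and 25 bases before the start. The GC box was in 6 of the 9 and in 32.7% of all. An E-box (CACGTG) was found only in Ptges2 (6.02% of all promoters) and a TATA box (TATAAA) only in Slco2a1, 29 bases before its start (12.4%). CCAAT was in Ptger2 and Ptger4 (33.9% of all promoters), in Ptger2 sharing its last base with a C/EBP match that began 156 bases before the start. A CRE core (TGACGT, in 6.47% of all), an AP-1 site (TGANTCA, 6.75%) and the NF-kB motif (7.25%) were in none of the 9 windows. These are matches of letters and show nothing of binding.

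Of the receptors, Ptger3, whose product lowers cyclic AMP, was at 3.43, 2.29 and 3.56 FPKM in normal mice 1, 3 and 4 and at 2.49, 1.24 and 1.55 FPKM in colitis mice 1, 2 and 4. Colitis mouse 1 was above normal mouse 3, so the groups overlapped (log2 fold change −0.81, SE 0.36, adjusted p = 0.220, exact permutation p = 0.2). Ptger4, whose product raises cyclic AMP, was at 8.20, 4.17 and 6.21 FPKM in normal mice and 4.88, 7.02 and 7.14 FPKM in colitis mice (exact permutation p = 0.8). Ptger2, which encodes the other cyclic AMP-raising receptor, was at 0.27 to 0.49 FPKM in normal mice and 0.17 to 0.56 FPKM in colitis mice, with an estimated 8.9 to 34.9 reads in these 6 mice (exact permutation p = 1). The strand of the reads is not given in the sources used here. In the GENCODE annotation, exons of Ptger4 share up to 872 bases with an antisense gene and 82 bases with Ttc33, also on the opposite strand. Those of Ptgs1, Ptgis, Ptger2 and Slco2a1 share 104 to 246 bases with antisense genes. Reads inside these shared stretches, a part of each transcript, cannot be assigned to a gene.

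**Figure D2:**
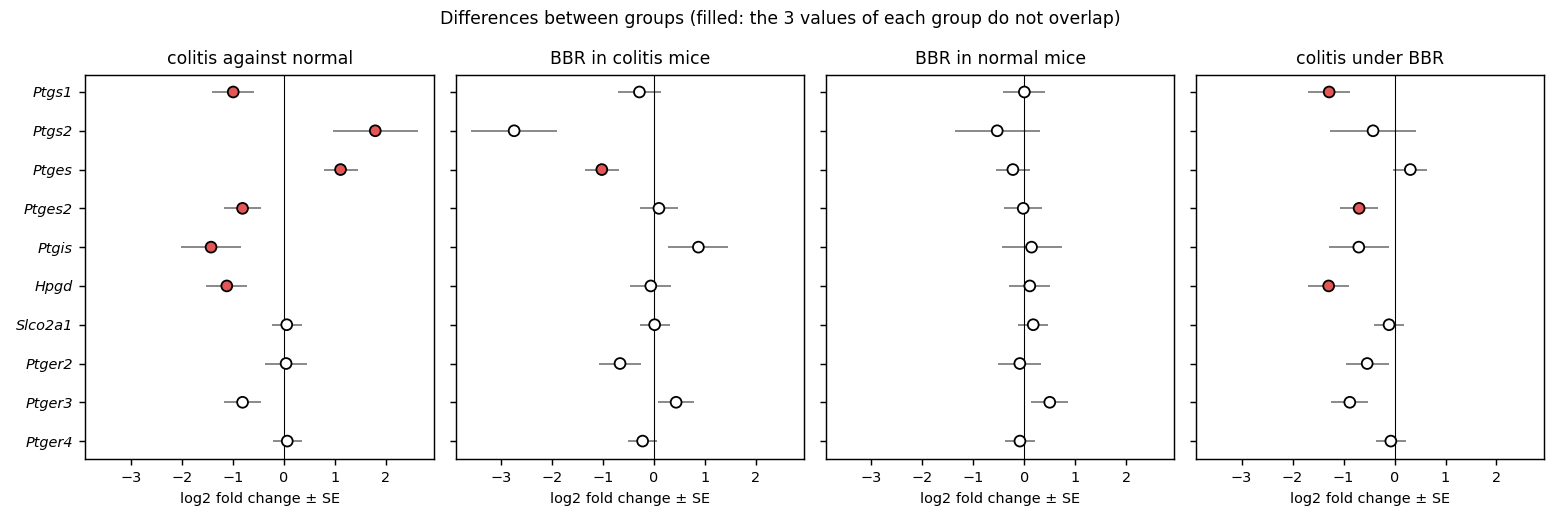
Log2 fold change with its SE (horizontal bars) for the 10 genes in 4 comparisons of 3 mice against 3. Filled points are genes whose groups did not overlap: 6 for colitis against normal, 1 (Ptges) for BBR in colitis mice, 0 for BBR in normal mice and 3 for colitis under BBR.

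Values of cell type markers moved in the same comparison. Of 8 smooth muscle markers 8 were lower in colitis mice, and their sum was 1664 to 3143 FPKM in normal mice and 73.7 to 673 in colitis mice. Colitis mouse 1, lowest for Ptgs1 and Ptgis, had the sum of 73.7. Endothelial markers summed to 28.1 to 31.8 FPKM in normal and 9.06 to 26.9 in colitis mice, with 7 of 8 lower. All 8 granulocyte markers were higher, with sums of 16.8 to 26.4 FPKM in normal mice, where S100a8 was at 0 in all 3, and 97.2 to 514 in colitis mice. Macrophage markers, 7 of 7 higher, summed to 159 to 205 FPKM in normal and 263 to 798 in colitis mice. Tuft cell markers, where Ptgs1 is also known to be expressed, summed to 8.28 to 9.24 FPKM in normal and 2.90 to 16.8 in colitis mice, with 6 of 8 lower. Mast cell markers, 4 of 6 tested higher and 2 lower, summed to 5.01 to 7.70 FPKM in normal and 11.9 to 24.1 in colitis mice. Squamous markers, 2 of 5 tested higher, summed to 9.98 to 66.7 and 42.0 to 443 FPKM. Of the fibroblast markers 6 of 8 were lower (sums of 288 to 500 FPKM in normal and 187 to 734 in colitis mice), as were 6 of 8 markers of enteric glia and neurons (17.8 to 29.2 and 13.2 to 33.2 FPKM). Epithelial markers, 5 of 8 lower, summed to 9440 to 13010 FPKM in normal and 9293 to 12930 in colitis mice. The part of all these markers in the differences of the prostaglandin genes was not tested.

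The sizes of the differences in colitis depend on the scaling between mice, since the all-gene median log2 fold change of −0.32 moved to −0.05 once values were quantile normalized. On quantile-normalized values the log2 fold change was 2.24 for Ptgs2 and 1.52 for Ptges, and −1.09 for Hpgd, −0.97 for Ptgis, −0.65 for Ptgs1 and −0.55 for Ptges2. At the unadjusted limit 2 of the 10 genes were then higher and 1 lower, where 9.72% of all genes were higher and 9.93% lower. With every mouse centred at its own median, 2 of the 10 were higher and 0 lower, beside 9.42% and 8.13% of all genes. The smallest adjusted p of Ptges was 0.0529, with a block for the mice numbered 4, and its range over all alternatives was 0.0529 to 0.296.

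**Figure D3:**
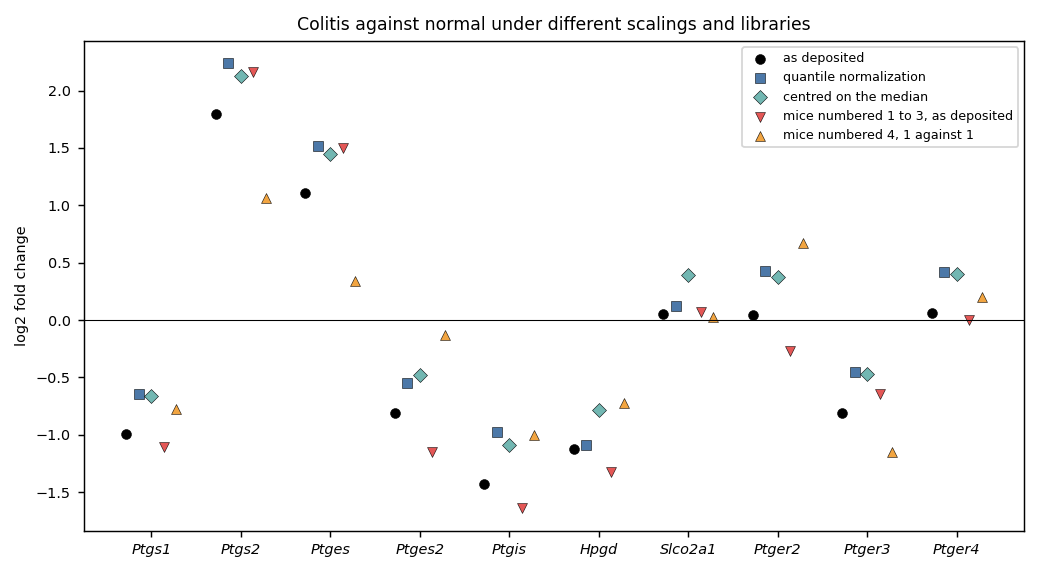
Log2 fold change of colitis against normal mice for the 10 genes as deposited, after 2 other scalings, and within the mice numbered 1 to 3 and numbered 4 (1 mouse against 1). Ptgs2, Ptges, Ptgs1, Ptgis, Hpgd, Ptges2 and Ptger3 keep their sign in all 5. Of these, Ptgs2, Ptges, Ptges2 and Hpgd each have their value closest to 0 in the mice numbered 4.

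Ratios within a mouse are not changed by centring on the median or any other factor common to all genes of that mouse, though quantile normalization can change them. Those of Ptgs2 to Ptgs1 and of Ptges to Hpgd were chosen after the values were seen and are given with no test. FPKM of Ptgs2 was 0.262, 0.0999 and 0.0926 times that of Ptgs1 in normal mice 1, 3 and 4, and 2.04, 1.39 and 0.350 times in colitis mice 1, 2 and 4. Ptgs1 was thus the higher cyclooxygenase in every normal mouse, and Ptgs2 in colitis mice 1 and 2. The ratio of Ptges to Hpgd was 0.00686 to 0.0225 in normal mice and 0.0348 to 0.133 in colitis mice, without overlap. In normal mice receiving BBR the ratios ran from 0.0602 to 0.119 and from 0.00651 to 0.0142, within or below those of normal mice. In colitis mice receiving BBR, Ptgs2 was 0.0201, 0.808 and 0.113 times Ptgs1 in mice 2, 3 and 4, and Ptges was 0.0207, 0.0665 and 0.0203 times Hpgd. On both measures colitis mouse 3 receiving BBR lay within the range of the colitis mice, and the other 2 below it.

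**Figure D4:**
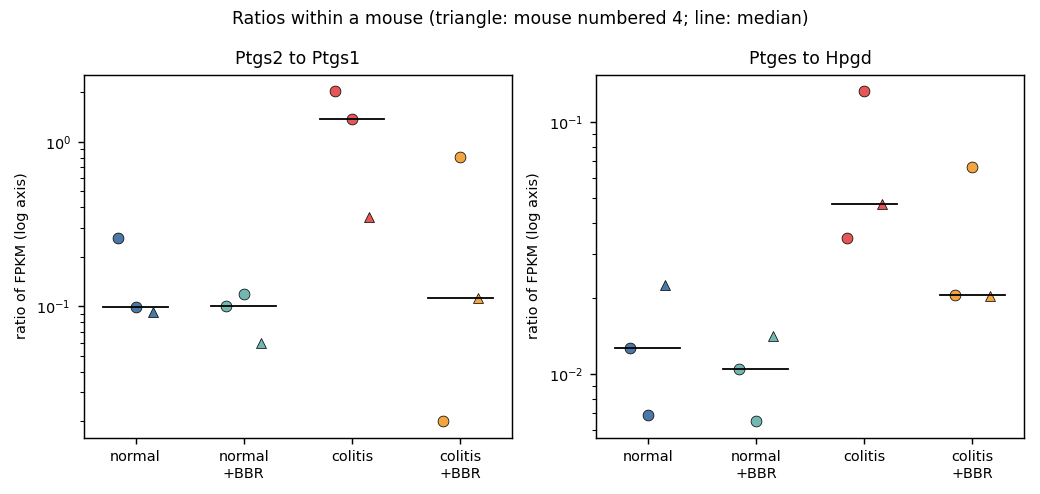
Ratio of FPKM within each mouse (log axes) of Ptgs2 to Ptgs1 and of Ptges to Hpgd, by group; triangles are the mice numbered 4 and lines the medians. The 3 colitis mice lie above the 3 normal mice in both panels, and the colitis mice receiving BBR spread from 0.0201 to 0.808 in the first.

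The comparison of colitis mice with and without BBR asks how the drug changes the inflamed tissue. Ptgs2 and Ptges were lower with BBR, Ptgis was higher in mean, and Hpgd, Ptgs1 and the receptors overlapped. None of the 10 genes passed the adjusted limit in limma (0.0% of all genes), and 2 of 10, Ptgs2 and Ptges, were lower at the unadjusted limit. Of all genes 6.39% passed that limit, 1.19% higher and 5.20% lower. On quantile-normalized values 1 of 10 was higher and 2 were lower (3.17% and 4.11% of all genes), and with median centring 0 and 2 (2.99% and 3.49%). For 1 gene, Ptges, the groups did not overlap, where 7.08% of all genes did not, 1.42% higher and 5.66% lower. The median log2 fold change was −0.14, beside −0.09 over all genes.

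Ptgs2 was at 0.05, 2.40 and 0.71 FPKM in colitis mice 2, 3 and 4 receiving BBR, against 4.65, 8.71 and 2.09 FPKM in colitis mice 1, 2 and 4. Mouse 3 with BBR was above colitis mouse 4, so the groups overlapped, while mouse 2 was near the floor of the measurement. Its 0.05 FPKM is an estimated 3.1 reads, and 3 reads are worth 0.0478 FPKM there. The log2 fold change was −2.75 (SE 0.84, adjusted p = 0.512, exact permutation p = 0.2). The size depends on single mice, since it was −1.66 without mouse 2 receiving BBR, −3.69 without mouse 3 receiving BBR and −3.27 without colitis mouse 4. With a pseudocount of 1 it was −1.60. Over all alternatives the adjusted p ran from 0.0628, without mouse 3 receiving BBR, to 1. In the fit without mouse 3, 58 of all genes passed the adjusted limit where 0 did in the full one.

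Ptges was at 2.47, 2.81 and 2.43 FPKM in colitis mice 2, 3 and 4 receiving BBR, all below the lowest colitis mouse at 4.27 FPKM and all within the range of normal mice. The log2 fold change was −1.03 (SE 0.33, adjusted p = 0.568, exact permutation p = 0.1), and it was −0.86 in the mice numbered 4 and −1.11 in the others. Leaving out each mouse in turn gave values between −1.18 and −0.75.

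Ptgis was at 1.5, 2.92 and 3.84 FPKM in colitis mice 2, 3 and 4 receiving BBR, against 0.40, 2.43 and 2.37 FPKM without it (log2 fold change 0.87, SE 0.59, adjusted p = 0.979, exact permutation p = 0.4). Without colitis mouse 1 the difference was 0.10. Smooth muscle markers summed to 483 to 3525 FPKM in colitis mice receiving BBR against 73.7 to 673 in colitis mice, with 8 of 8 higher, and their part in this difference was not tested. Macrophage markers, 7 of 7 lower, summed to 140 to 280 FPKM with BBR against 263 to 798 without it. Granulocyte markers, 8 of 8 lower, summed to 46.8 to 225 FPKM against 97.2 to 514, and fibroblast markers, 8 of 8 lower, to 180 to 281 FPKM against 187 to 734. Mast cell markers, 5 of 6 tested lower, summed to 5.78 to 10.8 FPKM with BBR against 11.9 to 24.1 without it, and these sums did not overlap. Tuft cell markers, 8 of 8 higher, summed to 5.85 to 21.3 FPKM against 2.90 to 16.8. Epithelial markers, 7 of 8 lower, summed to 6892 to 10340 FPKM against 9293 to 12930. The part of these markers in the values of Ptgs2, Ptges and Ptgs1 was not tested either.

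Hpgd was at 119, 42.3 and 119 FPKM in colitis mice 2, 3 and 4 receiving BBR, beside 123, 59.2 and 94.8 FPKM without BBR (exact permutation p = 0.8). Mouse 3 had the lowest Hpgd of all 12 mice. The other members also overlapped between these groups. Ptgs1 was at 2.49, 2.97 and 6.28 FPKM, Ptges2 at 12.3, 5.42 and 13.1, Ptger3 at 1.68, 2.23 and 3.29, and Ptger4 at 4.68, 5.10 and 6.37 FPKM in colitis mice 2, 3 and 4 receiving BBR. Slco2a1 had its highest and lowest value of the whole series in this group, 90.6 FPKM in mouse 2 and 36.7 FPKM in mouse 3.

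In normal mice BBR was given without injury. None of the 10 genes passed the adjusted limit in limma (0.0% of all genes), 0 of 10 passed the unadjusted one (1.36%, with 0.516% higher and 0.842% lower), and 0 of 10 had groups that did not overlap (9.62%, with 4.17% higher and 5.46% lower). Ptgs2 was at 0.82, 0.93 and 0.67 FPKM in normal mice 1, 3 and 4 receiving BBR, within or below the range of normal mice (exact permutation p = 0.2). Hpgd was at 180, 264 and 186 FPKM and Ptgs1 at 8.12, 7.82 and 11.1 FPKM, both overlapping with the normal mice (exact permutation p = 0.6 and p = 1). Ptger3 had its highest value of all 12 mice, 5.30 FPKM, in mouse 4 of this group (exact permutation p = 0.3).

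Colitis was also compared among mice that all had BBR. Here 3 of 10 genes were lower at the unadjusted limit (17.3% of all genes), 0 higher (2.37%, and 19.7% passed in all), and 0 passed the adjusted limit in limma (0.0392%). On quantile-normalized values 1 of 10 was higher and 2 were lower at the unadjusted limit (6.49% and 5.88% of all genes), and with median centring 0 and 1 (7.08% and 4.06%). The groups did not overlap for Ptgs1, Hpgd and Ptges2, all lower, where 20.2% of all genes did not overlap, 2.26% higher and 18.0% lower. Ptgs1 was at 2.49 to 6.28 FPKM in colitis mice receiving BBR and 7.82 to 11.1 FPKM in normal mice receiving BBR (log2 fold change −1.28, SE 0.41, adjusted p = 0.215, exact permutation p = 0.1). Hpgd was at 42.3 to 119 against 180 to 264 FPKM (log2 fold change −1.29, SE 0.40, adjusted p = 0.215, exact permutation p = 0.1). Without colitis mouse 4 receiving BBR, limma's adjusted p was 0.0290 for Ptgs1 and 0.0414 for Hpgd, but in that fit 2255 of all genes passed the limit where 6 did in the full one. Ptges2 had a log2 fold change of −0.69 and Ptger3 one of −0.88, the latter with overlapping groups (adjusted p = 0.292 and 0.234). Between these groups 8 of 8 smooth muscle markers were lower (sums of 483 to 3525 against 2340 to 4987 FPKM), as were 8 of 8 endothelial (9.68 to 19.7 against 27.1 to 31.3 FPKM) and 8 of 8 fibroblast markers (180 to 281 against 333 to 638 FPKM). All 8 granulocyte markers were higher, with sums of 46.8 to 225 against 9.13 to 17.3 FPKM. Tuft cell markers, 6 of 8 higher and 2 lower, had overlapping sums of 5.85 to 21.26 against 8.43 to 11.98 FPKM. Macrophage markers, 2 of 7 higher and 5 lower, also overlapped (140.2 to 280.3 against 158.2 to 246.1 FPKM). Epithelial markers were split, 4 higher and 4 lower. Higher were 4 of 6 mast cell markers tested, 2 of 5 squamous ones, and 2 of 8 of enteric glia and neurons. The part of all these markers in the values of Ptgs1, Hpgd, Ptges2 and Ptger3 was not tested.

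Whether BBR acted differently in colitis and in normal mice was tested as an interaction. It was passed by none of the 10 genes in limma, at the adjusted limit (0.0% of all genes) or at the unadjusted one (2.42%, with 0.699% above 0 and 1.72% below). The interaction was −2.21 on the log2 scale for Ptgs2 (SE 1.18) and −0.80 for Ptges (SE 0.47), each with an adjusted p of 1.00. For Ptgs2 it was −1.13 without colitis mouse 2 receiving BBR and −3.16 without colitis mouse 3 receiving BBR.

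Other genes of the prostanoid pathway were taken from a list of 32, of which 29 were in the table and 27 were tested. In colitis mice 10 were higher and 17 lower than in normal mice, with a median log2 fold change of −0.37 beside −0.32 over all genes. At the unadjusted limit 2 of 27 were higher and 5 of 27 lower, where 5.56% of all genes were higher and 15.9% lower. None passed the adjusted limit in limma in any of the 5 comparisons, and the counts at the unadjusted limit are read against the share of all genes. They were 7 of 27 in colitis (21.4% of all genes), 3 with BBR in colitis (6.39%), 0 with BBR in normal mice (1.36%), 7 in colitis under BBR (19.7%) and 3 in the interaction (2.42%). In colitis under BBR 3 of the 7 were higher (2.37% of all genes) and 4 lower (17.3%). The gene with the highest mean was Cbr1, a carbonyl reductase that can act on prostaglandins, at 296 ± 86.9 FPKM (SD, n = 3) in the normal group and 189 ± 79.3 FPKM with colitis. Akr1c18, an aldo-keto reductase of prostaglandin and progestin metabolism, was at 0.15 to 0.50 FPKM in normal mice and 8.08, 1.01 and 1.59 FPKM in colitis mice 1, 2 and 4 (log2 fold change 2.69, SE 0.91, adjusted p = 0.139). The alternatives gave it an adjusted p between 0.0148, with the replicate number as a block, where 734 of all genes passed against 165 without it, and 0.365, without colitis mouse 1. Without that mouse the log2 fold change was 1.83. Pla2g2e, a secreted phospholipase, was at 0 to 0.48 against 0.70 to 0.96 FPKM. Tbxa2r, the thromboxane receptor, was at 1.18, 0.69 and 1.69 FPKM in normal mice 1, 3 and 4 and at 0.09, 0.28 and 0.29 FPKM in colitis mice 1, 2 and 4 (log2 fold change −2.00, SE 0.62, adjusted p = 0.116). Pla2g3, another secreted phospholipase, was at 11.6 to 17.6 against 2.18 to 6.53 FPKM. Reads were estimated for the 10 members only, so the reads behind low values such as those of Tbxa2r and Pla2g2e are not known.

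In colitis mice receiving BBR, 17 of these 27 genes were higher and 10 lower than in colitis mice, with a median log2 fold change of 0.09 beside −0.09 over all genes. Tbxas1, which encodes thromboxane synthase, was at 0.58, 0.38 and 0.44 FPKM in mice 2, 3 and 4 receiving BBR and at 1.10, 2.30 and 1.16 FPKM in colitis mice 1, 2 and 4 (log2 fold change −1.45, SE 0.36, adjusted p = 0.454, exact permutation p = 0.1). Akr1c18 was at 0.16, 3.12 and 0.28 FPKM with BBR, and mouse 3 overlapped with the colitis mice. Abcc4, a transporter that can export prostaglandins, was at 7.31, 5.37 and 4.79 FPKM with BBR and 2.04, 3.14 and 3.19 FPKM without it (log2 fold change 1.04, SE 0.26, adjusted p = 0.486, exact permutation p = 0.1). Akr1b8, an aldo-keto reductase, was at 268, 274 and 89.1 FPKM with BBR and at 96.4, 191 and 42.6 FPKM without it.

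The leukotriene branch starts from the same arachidonic acid, and 11 of its 14 listed genes were tested. In colitis mice 5 were higher and 6 lower than in normal mice, with a median log2 fold change of −0.18 beside −0.32 over all genes. At the unadjusted limit 2 of 11 were higher and 0 lower, where 5.56% of all genes were higher and 15.9% lower. With BBR in colitis mice 0 were higher (1.19% of all genes) and 3 lower (5.20%), and with BBR in normal mice 0 passed (1.36%). In colitis under BBR 1 was higher (2.37%) and 2 lower (17.3%), and in the interaction 0 were above 0 (0.699%) and 2 below (1.72%). None passed the adjusted limit in limma in any of the 5 comparisons. Ltb4r1, the high-affinity leukotriene B receptor, was at 0.24, 0.13 and 0.55 FPKM in normal mice 1, 3 and 4 and at 1.58, 1.69 and 1.32 FPKM in colitis mice 1, 2 and 4 (log2 fold change 2.13, SE 0.53, adjusted p = 0.0704, exact permutation p = 0.1). Its low-affinity counterpart Ltb4r2 was at 0.28 to 0.68 against 1.51 to 2.55 FPKM (log2 fold change 2.08, SE 0.52, adjusted p = 0.0705). Over all alternatives limma's adjusted p ran from 0.0360 to 0.236 for Ltb4r1 and from 0.0357 to 0.256 for Ltb4r2. Both were lowest with a block for the mice numbered 4, where 1412 of all genes passed against 165 without it, and highest without normal mouse 1. With BBR, Ltb4r1 was at 0.24, 1.18 and 0.25 FPKM in colitis mice 2, 3 and 4, all below the colitis mice, and mouse 3, which also kept the highest Ptgs2 and Akr1c18 of its group, was again the highest (log2 fold change −1.60, adjusted p = 0.568). Without mouse 3 receiving BBR the log2 fold change was −2.23 (limma's adjusted p = 0.0637), in a fit where 58 of all genes passed the limit against 0 in the full one. Without mouse 2 receiving BBR it was −1.28. Cysltr1, a cysteinyl leukotriene receptor, was at 0.20 to 0.42 FPKM with BBR against 0.57 to 1.04 FPKM without it. Of the remaining named genes, Cysltr2 was at 0.30 to 0.45 FPKM in normal and 0.18 to 0.21 in colitis mice. In colitis mice receiving BBR it was at 0.03 to 0.11 FPKM, about as low as the pseudocount. Limma's adjusted p was 0.719 for that group against colitis mice and 0.150 against normal mice receiving BBR. Lta4h, the most abundant of the branch, was at 45.0 to 59.3 FPKM in normal and 27.6 to 46.6 in colitis mice. Ltc4s was at 1.49 to 12.4 FPKM in colitis mice and 2.83 to 8.92 with BBR, and Alox5, which encodes 5-lipoxygenase, at 0.53 to 2.86 and 0.48 to 2.22 FPKM.

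The genes whose log2 values were most like those of a member over the 12 mice, among 11934 genes with a mean of at least 1 FPKM, are given as a description. For Ptgs2 they were Fbxl5, Prim2 and Copg2 (Pearson r of 0.957, 0.934 and 0.926 over 12 mice). For Ptgis they were Nat14, Smim1 and Armcx3 (0.984, 0.953 and 0.951), and for Hpgd Ubl7, Tinag and Slc10a5 (0.974, 0.971 and 0.969). These mice share groups and the split between the mice numbered 4 and the others, and the values carry no test.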

How the data were processed

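Rectal RNA of 12 mice, 3 per group by the sample labels, was depleted of ribosomal RNA and sequenced by the authors as single-end reads of 50 bases on a BGISEQ-500, while the labels name an Illumina kit. The authors filtered reads with SOAPnuke 1.5.2, aligned them with Bowtie2 2.2.5 (build mm9 per the labels) and estimated expression with RSEM 1.2.12. The deposited values, 1 per gene and mouse, were read as FPKM from their size, and TPM cannot be told apart. No read counts are in the table, so depth was estimated from the steps of low values, and such estimates cover counting error only.

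Values were analysed as log2(FPKM + 0.1) in limma 3.58.1 (R 4.3.3), fitting group means with a variance trend, and Benjamini-Hochberg adjustment over 15315 genes. Mice are separate animals, and the sources used here give no batch. Python 3.11.15 served for tables and figures, using pandas 2.3.3, matplotlib 3.10.9 and NumPy 2.4.6. Deviations of same-numbered mice from their group means were compared across genes. The correlation was 0.11, 0.29 and 0.66 for the shared numbers 3, 1 and 4 of normal mice with and without BBR. In the other comparisons, with 2 shared numbers each, it was 0.396 to 0.751 for number 4 and 0.0777 to 0.386 for the other number. Number 4 had the highest correlation in each comparison. The numbers may pair the groups, but the mice numbered 4 also stand apart, and pairing cannot be told from that split here. A replicate block was an alternative. Other alternatives were 2 pseudocounts, 2 filters, 2 scalings, fits of fewer groups or mice, no trend, and a block for the mice numbered 4. The members, lists and alternatives were chosen with earlier results of these data known. The text names the 10 members and, of the other lists, genes past the adjusted limit, the 2 largest rises and falls in colitis and with BBR in colitis, and the highest mean, and the 3 genes most correlated with Ptgs2, Ptgis and Hpgd. Coordinates and promoter letters are RefSeq's (GRCm38.p6), another build than the files'.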

Additional observations from a re-analysis of the deposited data

How the results depend on the processing

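No alternative changed the direction of a log2 fold change that is given above for a prostaglandin gene. The count of the 10 genes past limma's adjusted limit was 0 in all 5 comparisons and stayed at 0 under every alternative but 1, the fit without colitis mouse 4 receiving BBR, where it was 2 for colitis under BBR. Over the fits that left out 1 mouse the count was 0 to 2 in that comparison and 0 to 0 in the others. With the replicate number as a block it was 0 in each comparison and changed no call of these genes, and the smallest adjusted p was then 0.117 for colitis against normal and 0.294 for BBR in colitis mice. Counts over all genes moved more: for colitis against normal 165 genes passed as tested, 734 with the replicate block, 1412 with a block for the mice numbered 4 and 11 to 211 without 1 mouse. The cause was not tested. With 3 mice a group, low values such as those of Ptger2 and of Ptgs2 in 1 mouse carry few reads. The same may hold for low genes of the other lists, such as Tbxa2r, Pla2g2e, Ltb4r1, Cysltr1 and Cysltr2, whose reads were not estimated. Of the 38 tested genes of the other lists, 6 passed limma's adjusted limit under at least 1 alternative in colitis against normal, as did 12.2% of all genes. They were Akr1c18, Ltb4r1, Ltb4r2, Tbxa2r, Ptger1, a prostaglandin E receptor gene, and Pla2g4f, a phospholipase gene, the last 2 named after their values were seen. In colitis under BBR 10 of 38 did so beside 19.7% of all genes, where the fit without colitis mouse 4 receiving BBR called 2255 genes and that of the 8 mice numbered 1 to 3 called 2302. The count was 0 of 38 with BBR in colitis mice (0.411% of all genes), with BBR in normal mice (0.00653%) and in the interaction (0%).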
